A study of Drosophila melanogaster and Drosophila persimilis and Drosophila pseudoobscura with 5 samples.

Results

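In the D. melanogaster RNA library of Johnston's organ, the antennal ear of flies, 96 abundant genes have no row in the authors' cross-species table. They were chosen by their reads in that library, as the gene identifiers with at least 10000 reads whose current symbol and older synonyms were absent from that table of 8180 genes, with ribosomal protein symbols (RpL and RpS) left out. The library listed 15441 identifiers, of which 397 (2.57%) reached 10000 reads. The 96 genes held 3667097 of the 22391819 reads counted on genes, a share of 16.4% (95% exact binomial interval 16.36% to 16.39%, counting error only). The reads chose these genes, so their counts are given as a description and were not tested.

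The study compared adult organs of D. melanogaster with those of 4 other Drosophila species (D. persimilis, D. pseudoobscura, D. yakuba and D. simulans), with 1 library each and all flies reared at 25 degrees Celsius. Strain, genotype, sex and numbers of flies are not stated in the labels. The counts of the other 4 species carry identifiers of their own, none of which occurs among those of D. melanogaster or has a name in the sources used here. The 96 genes therefore have a value in 1 library only, no difference below has a replicate check, and no p-value was computed.

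Johnston's organ is built of scolopidia, units in which stretch-sensitive neurons are enclosed by scolopale, cap and ligament cells. The neurons open mechanically gated channels when the antenna vibrates, and the enclosing cells maintain a potassium-rich lymph with the sodium pump. The pumps consume ATP, which is made by glycolysis and mitochondria and buffered by phosphoarginine in insects. The second segment also holds cuticle, glia, blood cells and fat tissue, and the neighbouring outer segment, the funiculus, holds the olfactory neurons and their secreted binding proteins.

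The 6 markers set for the organ were present at low counts. The channel genes nompC, nan and iav had 182, 639 and 1100 reads, the ciliary genes btv and tilB 144 and 224, and the matrix gene nompA 12. Together these 6 markers held 2301 reads, or 0.0103%. A longer list of 15 genes for mechanotransduction in the organ, with these 6 among them, held 24485 reads. Its most counted genes were pio (6093), wtrw (4990) and Dhc93AB (3913), and none of the 15 reached 10000. Fat body markers (Yp1, Yp2, Yp3, Lsp2 and fit) held 2.01%, olfactory markers 0.261%, muscle markers 0.212%, glial markers 0.0359% and eye markers 0.0117%, and no marker with a counted identifier was at 0. Most of the olfactory sum came from the secreted Obp83a (44312 reads), while lush had 3208, Obp28a 8180 and the receptor genes Orco and Or88a 2614 and 39. Fewer cells of a type and less RNA per cell cannot be told apart in such whole-tissue RNA.

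The genes in the table were the larger part of the abundant transcriptome. Of the 397 identifiers, 252 were in the table, RpL and RpS genes among them, and held 31.4% of all reads. Another 25 were ribosomal protein genes outside it with 2.38%, and 24 had no symbol in the annotation used here and held 3.20%. Among the 312 named abundant genes that are not RpL or RpS, the 96 outside made up 30.8%. Absence from the table was as frequent among named genes with at least 1000 but under 10000 reads, at 30.4% of 2791, and it was 37.4% over all 10517 such genes with at least 1 read. The share of absent genes was thus near the background at this level of reads, while it rose to 53.2% among named genes of 1 to 99 reads and 66.8% among those with no read.

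**Figure D1:**
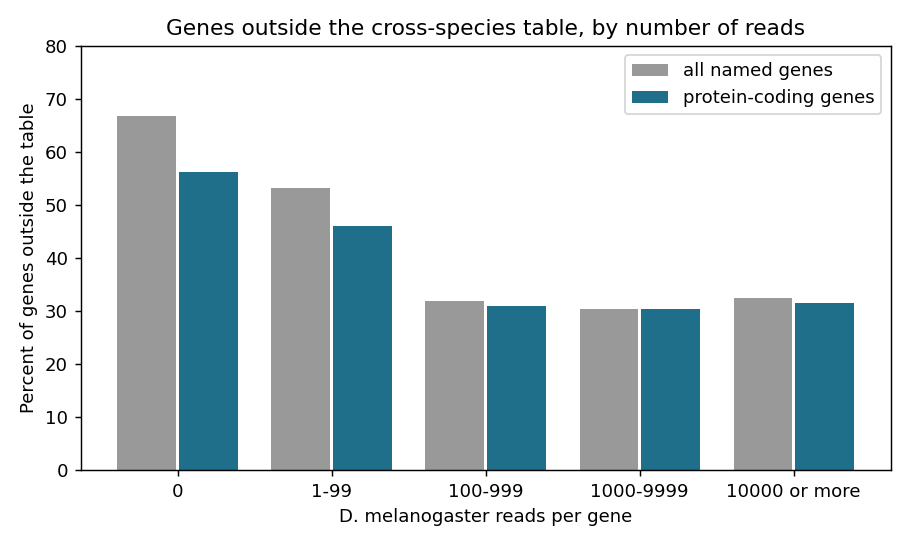
Percent of named D. melanogaster genes outside the cross-species table (y axis) in 5 classes of reads per gene (x axis), for all named genes and for protein-coding genes, RpL and RpS included. The bars are level from 100 reads upward, between 30.3% and 32.4%, and higher among genes with fewer reads.

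Reads were spread unevenly over the 96 genes. The median was 18769 reads and the range 10139 to 529050, and the 10 most counted genes held 47.9% of the reads of all 96. At least 100000 reads fell on 8 of the 96 genes (8.33%) and on 8 of the 252 genes in the table (3.17%). At lower limits the shares were closer, 14.6% against 10.7% with at least 50000 reads and 41.7% against 40.1% with at least 20000. The lowest were pst (10223 reads), ine (10186) and Rab7 (10139), and the next genes outside the table, just under the limit, were the dynein light chain ctp (9850), the catalase Cat (9811) and CG7272 (9715). Per length, the median level was 542 RPKM for the 96 genes and 598 RPKM for the 252 genes in the table. RPKM is reads divided by exon length in kilobases and scaled to the library total, in the usual unit. The 252 include RpL and RpS genes, most of them above 598 RPKM, and the 96 do not. The medians are therefore of unlike sets, and 542 against 598 RPKM cannot be read as a lower level outside the table.

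**Figure D2:**
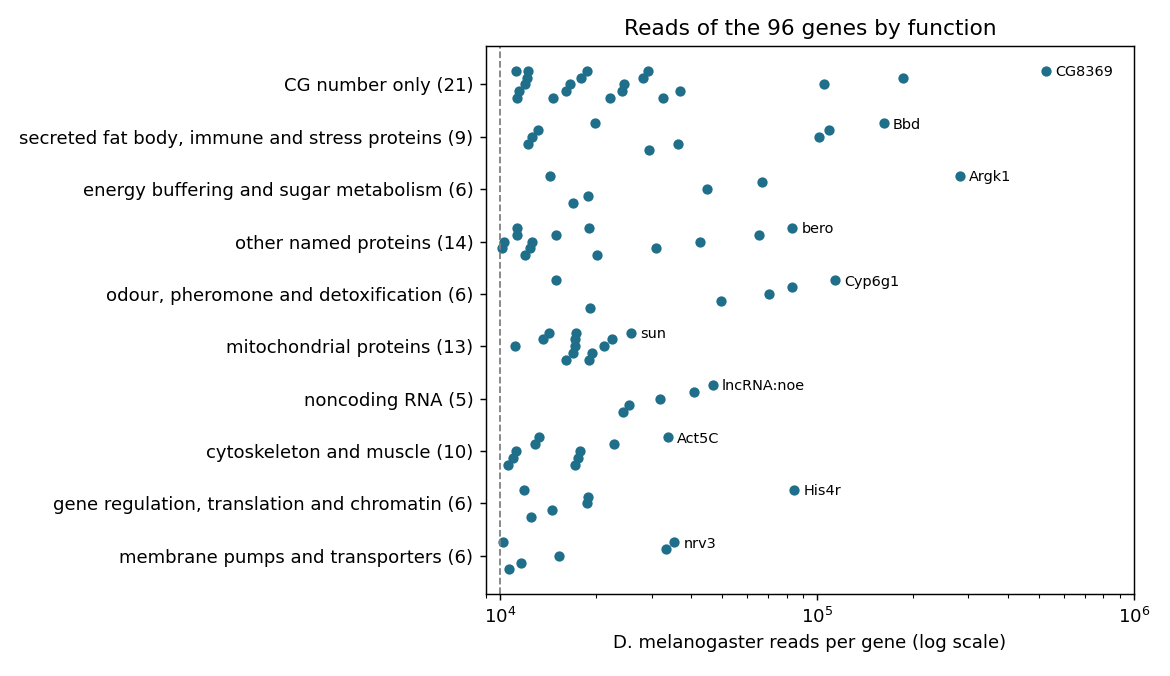
Reads per gene in the D. melanogaster library (x axis, log scale) for each of the 96 genes (points) by function group (y axis, with the number of genes), the most counted gene of each group named and the limit of 10000 reads dashed. CG8369 stands highest at 529050 reads, followed by Argk1 at 282703.

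Genes of energy buffering and sugar metabolism held 1.99% of all reads in 6 genes. The function groups were set by hand after the genes were known. Argk1, an arginine kinase that stores ATP energy as phosphoarginine, had 282703 reads (95% exact Poisson interval 281662 to 283747), which ranked 3 among the counts of the library. It lies at 3L:9048781-9066027 in BDGP6, with 7 transcripts, and its level was 3603 RPKM. Its relative Argk2 is in the table and had 46 reads.

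Both copies of glyceraldehyde-3-phosphate dehydrogenase, the glycolytic enzyme that yields NADH, were outside the table. Gapdh2 (X:15868145-15869661) had 66867 reads and Gapdh1 (2R:7791901-7793380) 44785. The isomerase Pgi had 18902 reads, the phosphoglycerate mutase Pglym78 14374 and the transaldolase Taldo of the pentose phosphate pathway 16983. Of 18 counted genes on a list of glycolysis and phosphagen genes, 14 reached 10000 reads, of which 9 were in the table and 5 outside. The share of all named abundant genes outside the table was 30.8%, RpL and RpS left out, so 5 of 14 says nothing particular about the pathway. The enzymes in the table included Ald1 with 125991 reads and Eno with 47879.

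Mitochondrial proteins numbered 13 and held 1.04% of all reads, within a narrow range of 11107 to 25798 reads. Of the ATP synthase, 4 genes were outside the table. The gene sun, which encodes subunit epsilon, had 25798 reads, ATPsynG 19037, ATPsyndelta 16977 and ATPsynE 14270. Of the electron transport chain, ND-39 (22554) and ND-ACP (11107) belong to complex I, UQCR-C2 (17330) to complex III, and COX5B (19512) and COX8 (13652) to cytochrome c oxidase. The citric acid cycle was represented by the aconitase mAcon1 (21195) and by Ogdh (17174), a subunit of the oxoglutarate dehydrogenase complex. IscU (17249) is the scaffold on which iron-sulfur clusters are built, and QIL1 (16152) is part of the complex that shapes the inner membrane.

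A list of the respiratory chain and ATP synthase, which covers only some subunits and does not hold sun, ATPsynE, ND-39 or ND-ACP, had 35 counted genes. Of these 33 reached 10000 reads, 28 in the table and 5 outside (ATPsyndelta, ATPsynG, COX5B, COX8 and UQCR-C2), beside 30.8% of all named abundant genes. Of 15 on the list of the citric acid cycle, 13 reached it, 11 of them in the table. The mitochondrial genome contributed none of the 96 genes, since its 37 identifiers had 1416 reads in all and the highest, mt:ND1, had 893.

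Secreted proteins of fat body, immunity and stress held the most reads of the groups with known functions, 2.21% of all reads in 9 genes. Yp3 (X:13759546-13761547), a yolk protein made in the female fat body, had 101270 reads, beside 196109 for Yp1 and 125735 for Yp2, which are both in the table. The lipoprotein precursor apolpp, which carries lipids through the haemolymph, had 36229 reads over 11766 bases of exon, or 138 RPKM. The secreted growth factor Idgf4 had 109283. The fat body markers Yp1, Yp2, Lsp2 and fit were also high in this library, at 9529 to 196109 reads, and how much of the counts of Yp3 and apolpp came with such tissue was not tested.

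Bbd (bombardier), a secreted protein needed for the presence of short Bomanin peptides in the blood, had 161855 reads (2R:20534245-20535835) and a level of 4724 RPKM. BomBc2, itself a Bomanin, the Toll-induced peptide family that protects against infection, had 19847. The drosomycin relative Drsl5 had 29363, the antifungal peptide Dso2 12561, the antibacterial AttC 12241 and the stress peptide TotA 13129. A separate immune list, which does not hold Bbd, BomBc2, Drsl5 or Dso2, had 23 counted genes. Of these AttC and TotA reached 10000 reads, and of the 21 below that count 12 were outside the table, where 37.4% of all named genes with a read were outside. The most counted of the 21 were Dso1 (9030 reads), which is in the table, and BomS1 (8144), BomS3 (7462) and BomS2 (6770), which are outside.

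Genes acting on odours, pheromones and foreign compounds held 1.57% of all reads in 6 genes. Cyp6g1, the cytochrome P450 known for resistance to DDT, had 113891 reads (2R:12185667-12188431), and Cyp313a1 of the same superfamily had 19202. The antennal protein a10, a small secreted protein of the chemosensory protein family, had 82937 reads over 567 bases of exon (3L:17023123-17023741). Its level of 6532 RPKM ranked 6 among the named genes, the only ones with an exon length. Est-6, a secreted esterase that acts on odorants and pheromones, had 70284 reads. Desat1, a fatty acid desaturase for cuticular hydrocarbons, had 49631, and the aldehyde dehydrogenase Aldh 14949. Of 34 counted genes on the list of odorant binding and antennal secreted proteins, 10 reached 10000 reads, 8 in the table and 2, a10 and Est-6, outside. Of all named abundant genes, RpL and RpS left out, 30.8% were outside. Among the 24 list genes below 10000 reads, 7 were outside, where 37.4% of all named genes with a read were outside. The 7 included Os-C (6273 reads), Obp19a (6262) and lush (3208). The odorant-binding proteins of that list that reached the count, Obp19d (367821 reads), Obp56d (91915), Obp83a (44312), Obp83b (25795), Obp57c (16635) and Obp99c (12212), were all in the table.

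Pumps and transporters were 6 genes with 0.520% of all reads. nrv3, a beta subunit of the sodium pump with a known role in the neurons of this organ, had 35375 reads (2L:21380000-21393319). The catalytic subunit Atpalpha (97237 reads) and the beta subunit nrv2 (79593), known from the scolopale cells, are in the table. The remaining beta subunit, nrv1, is outside it and had 2677. SERCA, which pumps calcium into the endoplasmic reticulum, had 33232 reads, and Vha68-2, a catalytic subunit of the vacuolar proton pump, 15345. The amino acid transporter path (11621), the zinc transporter foi (10600) and ine (10186), of the neurotransmitter transporter family, complete the group.

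Cytoskeletal and muscle genes were 10, with 0.750% of all reads. Act5C, a cytoplasmic actin, had 33864 reads (X:5900861-5905399) and Act87E, an actin of muscle, 22744. Act42A (1751) and Act57B (1805) are in the table, and Act88F of flight muscle is outside it with 5715. Scp1, a calcium-binding protein of muscle, had 17793 reads, Zasp66, a protein of the sarcomere's Z disc, 17567, and the muscle LIM protein Mlp60A 12881. The muscle markers Mlc2 (34136 reads), Mhc (6236), Act88F (5715) and up (1317) were all present in this library, and their part in these counts was not tested.

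The other cytoskeletal genes encode linkers. CLIP-190 (17133 reads) binds microtubule ends, the spectraplakin shot (13182) joins actin and microtubules, the nesprin Msp300 (11224) joins the nucleus to the cytoskeleton, and Ank2 (10586) is a neuronal ankyrin. CAP (10957), a vinculin-binding adaptor, is known from the scolopale cells of chordotonal organs. Since these genes have long exons, their levels per length were low. Over the union of exons they were 90.8 RPKM for CLIP-190, 26.5 for CAP, 19.4 for shot, 10.1 for Ank2 and 7.18 for Msp300, the lowest of the 96. Over the longest transcript alone they were 123, 54.2, 21.1, 11.2 and 11.6 RPKM, in the same order.

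Regulators and components of chromatin and translation were 6 genes with 0.720% of all reads. His4r, the replacement histone H4, had 84571 reads (3R:14625755-14626614) and a level of 4745 RPKM. The homeodomain protein hth, which specifies antennal identity, had 18730 reads over 11839 bases of exon, or 70.7 RPKM. The RNA-binding protein cpo, known from the peripheral nervous system, had 18872 and its fellow RNA-binding protein Rbp6 11888. Tctp, a growth regulator, had 14588, and eEF1beta, an elongation factor, 12467.

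All 5 noncoding genes with at least 10000 reads were outside the table, which held 3 of the 1471 named noncoding genes. The noncoding RNA noe had 46832 reads (3L:17400272-17401348). lncRNA:CR40469 had 40855 reads over 214 bases (X:122493-122706), and its level of 8526 RPKM ranked 4 among the named genes. The stress-responsive Hsromega had 31848 reads, CR42862 25491 and roX1 24321. roX1 coats the male X chromosome in dosage compensation, and the yolk proteins are made in females, so that transcripts typical of both sexes were among the abundant ones.

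The 14 other named proteins held 1.59% of all reads. bero, a small membrane-anchored protein of the Ly6 family, had 83446 reads, the antizyme Oda, which restrains polyamine synthesis, 65413, the cysteine protease inhibitor Cys 42513 and the cyclophilin Cyp1 30937. Gabat (20104), which breaks down the transmitter GABA, and aay (18994), the phosphatase that completes serine synthesis, followed. AcCoAS (14918) makes acetyl-CoA from acetate. Rtnl1 (12584) and ReepB (12410) shape the endoplasmic reticulum, bdl (11932) is a cell adhesion protein of the immunoglobulin family, pst (10223) acts in resistance to viruses, and Rab7 (10139) directs traffic to late endosomes. The acyl-CoA synthetase relative Acsx2 (11307) and Jhbp3 (11298) complete the group.

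The largest group by reads had no gene name beyond a CG number. Its 21 genes held 5.24% of all reads, or 32.0% of those of the 96. Such symbols made up 21.9% of the 96 genes and 16.3% (41) of the 252 in the table, RpL and RpS included. CG8369 (3R:8822008-8822838) alone had 529050 reads (95% exact Poisson interval 527625 to 530478), 2.36% of the library and its highest count. Its exons cover 774 bases, and its level of 30526 RPKM was also the highest of the 14767 named genes. For comparison, Obp19d, the most counted gene in the table, had 367821 reads and 14920 RPKM. CG8369 ends 10 bases from IscU on the opposite strand, and no exon of another gene overlaps it.

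CG6409 (3L:10880699-10882386) had 186560 reads and 5396 RPKM, and CG6357 (2R:13840053-13841743) had 105258 reads and 3262 RPKM. CG14445 had 36914, CG9691 32519, CG10553 29198, CG34220 28122 and CG31997 24116. CG43091, CG43092 and CG43093 had 14612, 24591 and 22232 reads and lie side by side on 3R between 22768121 and 22770307, all on the minus strand, with gaps of 149 and 107 bases. These 3 genes held 61435 reads in all. The remaining 10 (CG3662, CG13124, CG6908, CG8086, CG43149, CG1640, CG17508, CG13950, CG34180 and CG34324) had 11218 to 18807 reads.

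**Figure D3:**
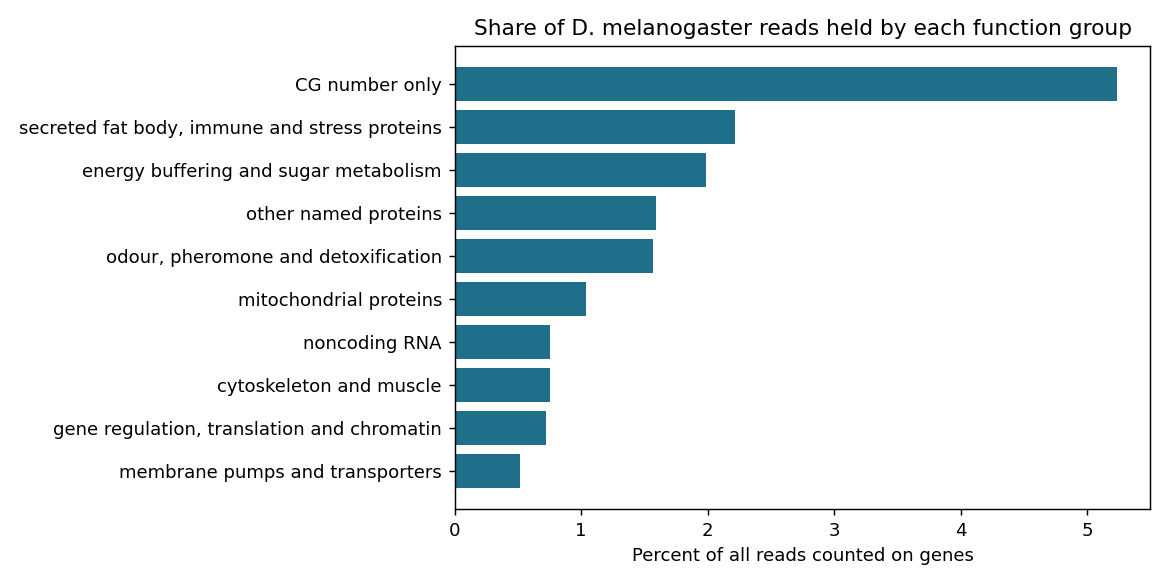
Share of all reads counted on genes in the D. melanogaster library (x axis, percent) held by each function group of the 96 genes (y axis). Genes known by a CG number hold 5.24%, of which CG8369 accounts for 2.36%, and each of the other groups holds 2.21% or less.

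In several gene families the most counted copy was the one without a row in the table. Of 20 families with members among the 96 genes, chosen after the genes were known, the most counted copy was outside the table in 17. Of all 20 families, 16 had a copy in the table, those whose most counted copy is in it included. Desat1 had 49631 reads against 23 for Desat2 in the table, mAcon1 21195 against 0 for mAcon2, Vha68-2 15345 against 5 for Vha68-3, and Pglym78 14374 against 18 for Pglym87. Idgf4 had 109283 reads, while Idgf2 (21695), Idgf6 (20485), Idgf3 (6377) and Idgf1 (567) are in the table. Since each family was chosen through an abundant gene outside the table, these counts describe the families and do not test a tendency.

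Other families were wholly or mostly outside it. Neither glyceraldehyde phosphate dehydrogenase, neither Cyp6g gene and none of the 6 drosomycin relatives (Drsl1 to Drsl6) had a row. The gene of drosomycin itself is not among these 6. Of 12 Bomanin genes 11 were outside, with 91.3% of the family's 73576 reads, and of 8 Turandot genes 7, with TotA at 13129 reads and the next, TotM, at 592. Over all named genes 45.7% were outside the table, and 66.8% of those with no read, as with TotB, TotZ, Drsl1 and Drsl6. These families too were chosen through an abundant gene outside it. The families whose most counted copy is in the table were the yolk proteins, the juvenile hormone binding proteins and the sodium pump beta subunits. Their leading copies were Yp1 (196109 reads), Jhbp14 (157405) and nrv2 (79593). Reads from near-identical copies, such as the actins, cannot be assigned with certainty, because the labels do not state how reads with several matches were treated.

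**Figure D4:**
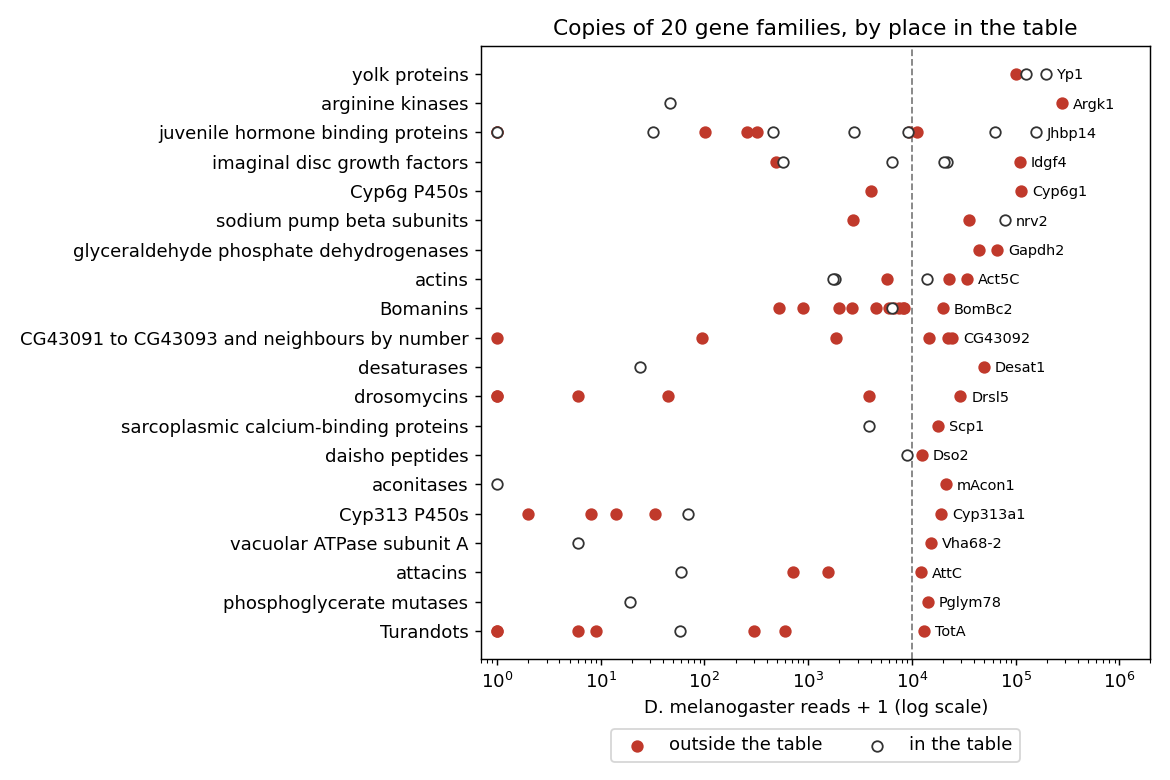
Reads plus 1 of each copy of 20 gene families in the D. melanogaster library (x axis, log scale), with filled points for genes outside the cross-species table, open points for genes in it, the most counted copy named and the limit of 10000 reads dashed. In 17 of the 20 families the rightmost point is filled.

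Gene structure is not independent of the choice of genes, since longer exons collect more reads at the same level and both sets had to reach 10000 reads. The 252 also hold RpL and RpS genes, which the 96 leave out, among them RpL39 with the shortest exons of the 252 (288 bases). How much of the differences in structure between the sets comes from this was not tested. Exon length had a median of 1686 bases in the 96 genes and 1512 in the 252 genes of the table. Nearly all RpL and RpS genes of the 252 have less than 1512 bases of exon. These medians are therefore not of like sets and cannot be read as longer exons outside the table. The range was wider outside it, 214 to 69810 bases against 288 to 13660. At least 5 kilobases of exon were found in 15 of the 96 genes (15.6%) and 14 of the 252 (5.56%), and in 12 of the 91 protein-coding genes among the 96 (13.2%). A span of at least 50 kilobases was found in 6 (6.25%) and 2 (0.794%). The 6 genes were Rbp6 (179439 bases), hth (132008), Msp300 (106126), cpo (99061), shot (77874) and Ank2 (63007).

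Overlap with exons of other genes was found in 29 of the 96 genes (30.2%) and 83 of the 252 (32.9%). At least 10% of the exon length overlapped in 7 of the 96 (7.29%) and 30 of the 252 (11.9%). Among the 7 were Cys with 90.7% of its length, ATPsyndelta with 35.6% and CG34180 with 25.8%. The partner of Cys, an antisense RNA, is not among the counted identifiers, while those of ATPsyndelta and CG34180 are. Because the strand setting of the counting is not given, reads in these stretches cannot be assigned to 1 gene. The 96 genes were spread over the arms, with 23 on 3L, 22 on 3R, 19 on 2R, 17 on 2L, 13 on X and 2 on 4, and for the 252 genes the numbers were 40, 75, 56, 46, 33 and 2.

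**Figure D5:**
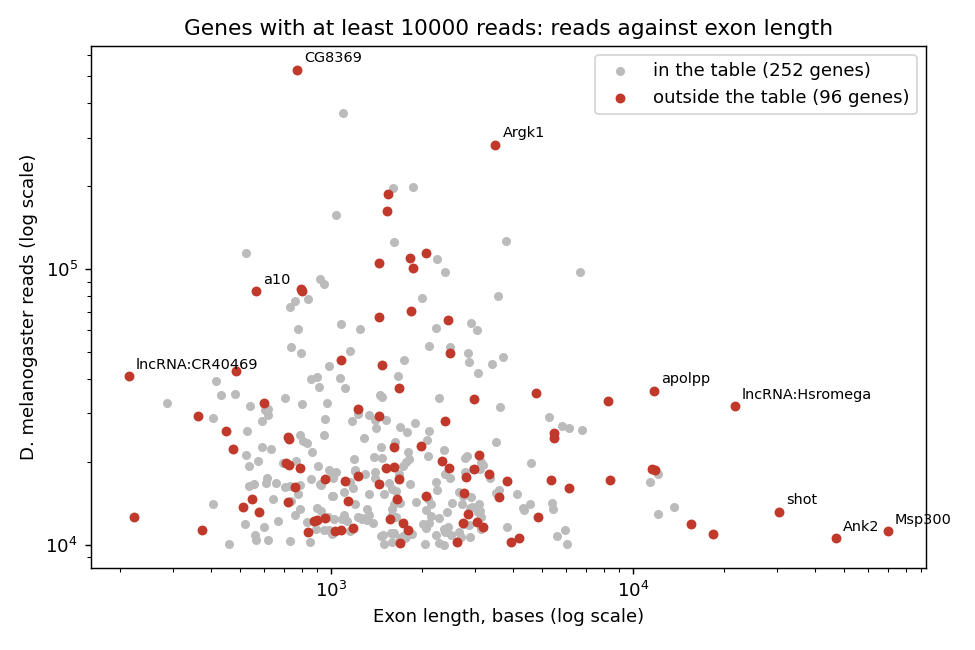
Reads in the D. melanogaster library (y axis, log scale) against exon length (x axis, log scale) for genes with at least 10000 reads. Shown are the 96 genes outside the cross-species table and the 252 in it, with RpL and RpS included only among the 252. Both sets share the middle of the plot, and the genes with the longest exons, Msp300, Ank2 and shot, are outside the table.

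Symbol matching limits how firmly a gene can be placed. For 11 further abundant genes that are not RpL or RpS the table was matched only by a synonym that another gene also carries. For 4 of them, the table's D. melanogaster signal was at most 0.0445 times what the gene's own count and length give. These were the chaperone Hsp83 (18887 reads, ratio 0.0310), the tubulin alphaTub84B (46828, 0.0231), the actin Act79B (14075, 0.0445) and the cytochrome oxidase subunit cype (11840, 0.0350). Among the 4549 genes with more than 20 reads that were matched by current symbol, the signal of 98.9% lay within 2-fold of that value. The rule places these 4 genes in the table, where the row they match did not follow their reads. The other 7 matched a row within 2-fold, which does not settle whose row it is. Mdh1 (24297 reads) matched the row Mdh2, the current symbol of another abundant gene. UQCR-11 (22900) and UQCR-14 (21220) both matched the same row, Ucrh.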

How the data were processed

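The deposited counts are whole reads per gene of each species' annotation (release 5.46 for D. melanogaster, per the labels), with no normalization. The submitters' processing notes name TopHat2 2.0.3 and HTSeq. Strand and multiple-match settings are not stated in the labels. The authors' table holds a length-corrected signal scaled between libraries, and it served for gene symbols and for 1 check of matching.

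Of 15441 identifiers, 14767 had a symbol in the Ensembl BDGP6 annotation, a later build that also supplied coordinates, exon lengths and overlaps by gene identifier. Synonyms came from RefSeq (Release 6 plus ISO1 MT). Of the table's 8180 symbols, 254 matched no named identifier. Intervals are exact (95%) and cover counting error only. RPKM was computed from counts and the union of exons. The rule was tested on simulated data, but no result of that test is given here and nothing above rests on it. Total counts were 22391819 in D. melanogaster and 7580214 to 13916387 in the other libraries. Python 3.11.15, pandas 2.3.3 and scipy 1.17.1 were used. Genes with values were named by count, by RPKM, by list membership and by nearness to 10000 reads, and the rest by function group. Members and lists were chosen with earlier results of these data known.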

Additional observations from a re-analysis of the deposited data

Results flagged for a closer look

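Reads outside the genes described above were also high. The 24 identifiers with at least 10000 reads and no symbol in the later annotation held 716823 reads. The highest were FBgn0000556 (153431 reads) and FBgn0040813 (147765), which rank 9 and 10 in the library. Whether they have a row in the table could not be settled by symbol. The 25 RpL and RpS genes outside the table held 532491 reads, 11421 to 44182 each.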

How the results depend on the processing

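The number of genes was 96 and their share of all reads 16.4%. With a minimum of 5000 reads they were 210 genes and 19.9%, and with 20000 reads 40 genes and 12.8%. By current symbols alone they were 179 genes and 28.4%. With synonyms of 1 gene only the share was 18.1% (107 genes), with case ignored 14.9% (92) and with RpL and RpS kept 18.8% (121). None of the 4 genes lost with case ignored, Argk1, Act87E, hth and CG1640, matched a row within 2-fold of the signal their count gives. With CG8369 left out of both the genes and the total the share was 14.4%, and with the fat body list left out of both 16.3%. Of 2 alternatives chosen after seeing the data, counting in the unnamed identifiers gave 19.6% (120 genes), and leaving out genes with exon overlap 12.9% (67 genes). A minimum of 282 RPKM, which 397 genes pass, gave 104 genes, 65 of them among the 96. With the longest transcript as length the median level was 551 RPKM, and on the same strand only 7.29% of the 96 genes overlapped another gene's exons. The comparison of protein identity between copies was not run, because protein sequences were not used here. No paired analysis was possible because each species has 1 library.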
